A study of Mus musculus with 15 samples.

Results

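The transcripts of 10 genes that report on and restrain ERK signalling were followed through the RNA-seq of mouse embryonic stem cells (mESCs) lacking the cohesin subunits STAG1 or STAG2. They are the 10 gene rows with the symbols Spry1, Spry2, Spry4, Spred1, Dusp4, Dusp6, Etv4, Etv5, Egr1 and Myc, out of 23412 genes counted, and were chosen by name, with earlier results of these data known. All 10 passed the filter on low counts and were among the 14508 genes tested, and the lowest raw count of any of them in any library was 191 (Myc).

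Polyadenylated RNA was measured in 15 libraries of male v6.5 mESCs grown on gelatin, 3 replicates in each of 5 conditions. Wild-type and Stag2-/- cells were each transfected with siGLO or siStag1, Stag1-/- cells with siGLO alone, and the wild-type siGLO cells served as the control. All cells, the controls included, thus carried siRNA, siGLO being a non-targeting control and siStag1 directed against Stag1, and were given 50 nM and harvested after 48 h. Each knockout genotype was 1 CRISPR clone, so that a property of the clone and an effect of the deleted gene cannot be told apart, and its 3 replicates are not separate clones. The study describes its RNA-seq replicates as biological but does not say whether they were separate cultures, so the p-values measure the spread between these libraries, which may be technical.

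The cells carried the markers of mESCs, with the summed normalized count of 8 markers such as Pou5f1 and Nanog between 102008 and 107018 in wild-type siGLO, between 94799 and 101903 in wild-type siStag1, between 83916 and 97037 in Stag1-/-, between 79424 and 92961 in Stag2-/- siGLO and between 59130 and 72896 in Stag2-/- siStag1 cells. The library depth was 14982560 to 19070126 counts on genes. Mean normalized Stag2 counts were 692 in Stag2-/- siGLO against 2331 in wild-type siGLO cells. Mean normalized Stag1 counts fell from 2146 to 442 with siStag1 in wild-type cells and were 692 in Stag2-/- siStag1 cells. They were 2023 in the Stag1-/- clone, whose exonic deletion the transcript count does not check. The study reports an in-frame deletion in this clone, with Stag1 transcript at a normal level and no STAG1 protein detected by western blot. Summed counts of 6 primitive endoderm markers were 3790 to 4233 in both wild-type conditions, 326 to 524 in Stag1-/-, 707 to 1134 in Stag2-/- siGLO and 840 to 1117 in Stag2-/- siStag1 cells. Summed counts of 6 primitive streak and mesoderm markers reached 1188 in replicate 2 and 557 in replicate 3 of Stag2-/- siGLO, against 240 to 419 in the other 13 libraries. Of the 5 of these markers tested, 3 were called higher and 1 lower in Stag2-/- siGLO (list median 2.32), and likewise 3 higher and 1 lower in Stag2-/- siStag1 cells (list median 1.57). These markers move with the knockouts compared below, and their part in the differences was not tested. In bulk RNA, fewer cells of a type and less RNA per cell cannot be told apart.

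In the ERK pathway, growth factor receptors activate RAS, which passes the signal through the kinases RAF and MEK to ERK1 and ERK2. Active ERK induces transcription factors such as EGR1, MYC and the ETS factors ETV4 and ETV5, and it also induces its own inhibitors, the Sprouty and SPRED proteins, which act near RAS and RAF, and the dual-specificity phosphatases (DUSPs), which remove the activating phosphates from ERK itself. In mESCs, autocrine FGF4 keeps this pathway active and primes the cells to leave the naive pluripotent state, so the transcripts of these genes are widely used as a readout of ERK output.

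Promoters are shown for Spry2, Dusp6 and Spred1, the 3 genes with a promoter in the RefSeq table used here that were higher in both Stag2-/- conditions. That table (build GRCm38.p6) held 5 of the 10 genes, the others being Spry1 and Etv5. Each sequence is the 250 bases ahead of the listed start, 5′ to 3′ on the gene's own strand, and capitals mark GGAA, the core that ETS factors recognise, on either strand (TTCC on the other). This motif was searched after the expression values were known.
Spred1 promoter, chr2:117120821-117121070 (+): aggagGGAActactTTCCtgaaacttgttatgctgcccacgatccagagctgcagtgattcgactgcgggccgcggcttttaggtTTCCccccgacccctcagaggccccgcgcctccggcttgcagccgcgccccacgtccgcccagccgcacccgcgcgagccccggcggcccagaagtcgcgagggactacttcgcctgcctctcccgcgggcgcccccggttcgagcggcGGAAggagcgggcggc
Dusp6 promoter, chr10:99262981-99263230 (+): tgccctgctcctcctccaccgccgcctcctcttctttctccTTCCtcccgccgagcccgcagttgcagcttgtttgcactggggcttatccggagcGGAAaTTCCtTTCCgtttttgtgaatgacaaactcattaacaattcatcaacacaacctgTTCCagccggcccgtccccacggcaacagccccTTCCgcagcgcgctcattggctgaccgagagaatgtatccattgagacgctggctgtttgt
Spry2 promoter, chr14:105896820-105897069 (-): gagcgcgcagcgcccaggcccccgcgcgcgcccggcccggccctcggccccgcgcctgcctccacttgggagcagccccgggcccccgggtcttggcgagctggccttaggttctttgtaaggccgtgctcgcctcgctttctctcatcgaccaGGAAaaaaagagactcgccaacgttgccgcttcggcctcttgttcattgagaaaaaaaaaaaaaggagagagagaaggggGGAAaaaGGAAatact
The Dusp6 window held 6 such cores, the Spred1 window 4 and the Spry2 window 3. GGAA or TTCC occurred in 93.4% of all 32851 windows of this length, with a median of 3 per window, so the cores are a description of these promoters and not a feature that sets them apart. In the listed promoters of 300 bases of Spry1, Spry2, Spred1, Dusp6 and Etv5, no match on either strand was found for the longer ETS motif CCGGAAG (present in 8.86% of all promoters, and containing GGAA), the AP-1 motif TGANTCA (7.81%), the CRE motif TGACGTCA (1.79%) or the serum response factor's CArG box (1.63%). These letters are thus absent from these windows, and nothing was measured on the binding of the factors.

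Per kilobase of exon, the 10 genes spanned a wide range of levels in wild-type siGLO cells. Etv5 was the most abundant at 1067 ± 65.5 normalized counts per kb (SD, n = 3), followed by Etv4 at 886 ± 155 and Spry2 at 606 ± 79.0, each with no overlap to the next gene. Spry4 (382 ± 69.9) and Dusp6 (324 ± 54.0) overlapped in their replicates. Dusp4 came next at 258 ± 12.6 counts per kb. Spred1 (223 ± 22.6), Myc (145 ± 64.4) and Spry1 (102 ± 14.4) followed, with neighbours overlapping. Egr1 was the lowest at 57.3 ± 11.2 counts per kb and was the only one of the 10 below the median of 86.6 over 13617 tested genes with an exon length. In both knockout clones, with siGLO, and in Stag2-/- siStag1 cells, Spry2 stood above Etv4 by mean, at 927, 967 and 1049 counts per kb against 667, 664 and 431, although in Stag2-/- siGLO their replicates overlapped.

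**Figure D1:**
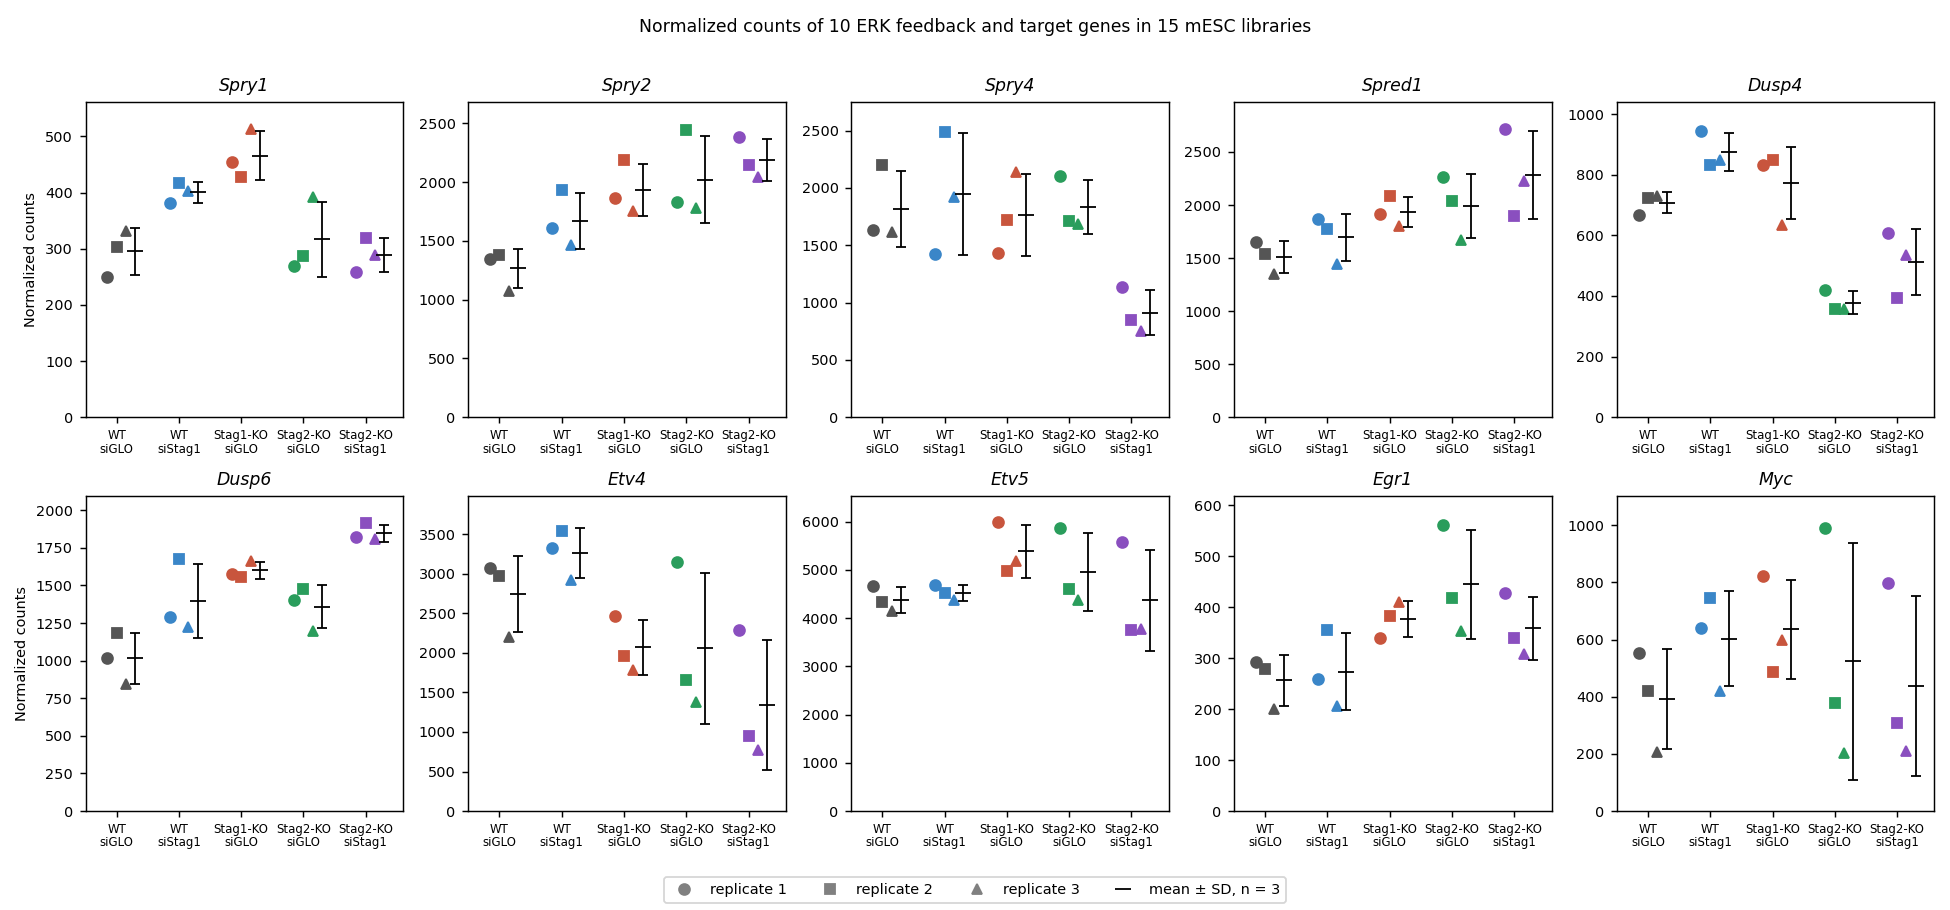
Normalized counts (y axis, linear from 0, a separate scale for each gene) of the 10 genes in each of the 15 libraries, by condition on the x axis, with Stag1-KO and Stag2-KO standing for the knockout clones. Symbols mark the replicate number, and bars the mean ± SD (n = 3). Dusp6 lies above the wild-type siGLO libraries in the other 4 conditions, Dusp4 lies below them in both Stag2-/- conditions, and Spry4 lies below them in Stag2-/- siStag1 cells, at 750 to 1133.

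Several feedback inhibitors among the 10 genes had higher transcript levels in each knockout clone than in wild-type siGLO cells. The genes of the group did not move in 1 direction, and the inhibitor Dusp4 was lower in Stag2-/- siGLO cells. A gene was called at a Benjamini-Hochberg adjusted p under 0.1 in edgeR's two-sided quasi-likelihood test, with the adjustment over all genes tested. Of the 10 genes, 4 rose and 0 fell in Stag1-/- siGLO cells, where 20.0% of all genes tested were called, 10.1% as higher and 9.93% as lower. In Stag2-/- siGLO cells 4 rose and 1 fell, where 28.3% of all genes were called, 13.9% as higher and 14.4% as lower. In Stag2-/- siStag1 cells 4 rose and 3 fell, where 43.9% of all genes were called, 22.6% as higher and 21.3% as lower. In wild-type siStag1 cells none of the 10 was called by edgeR without the replicate block described below, where 0.248% of all genes were. The median log2 fold change of the 10 genes was 0.46 in Stag1-/-, 0.29 in Stag2-/-, 0.28 in wild-type siStag1 and 0.08 in Stag2-/- siStag1 cells, against medians of all genes of -0.013, 0.007, -0.0017 and 0.0055. Of the 8 ESC markers, 1 was called lower in Stag1-/-, 4 in Stag2-/-, 7 in Stag2-/- siStag1 (list median -1.33) and 0 in wild-type siStag1 cells without the block, and none higher. The block called 3 lower in Stag1-/-, 5 in Stag2-/- and 1 in wild-type siStag1 cells, and their part in the changes of the 10 genes was not tested. The 4 comparisons share the same 3 wild-type siGLO libraries, so they are not independent of one another.

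**Figure D2:**
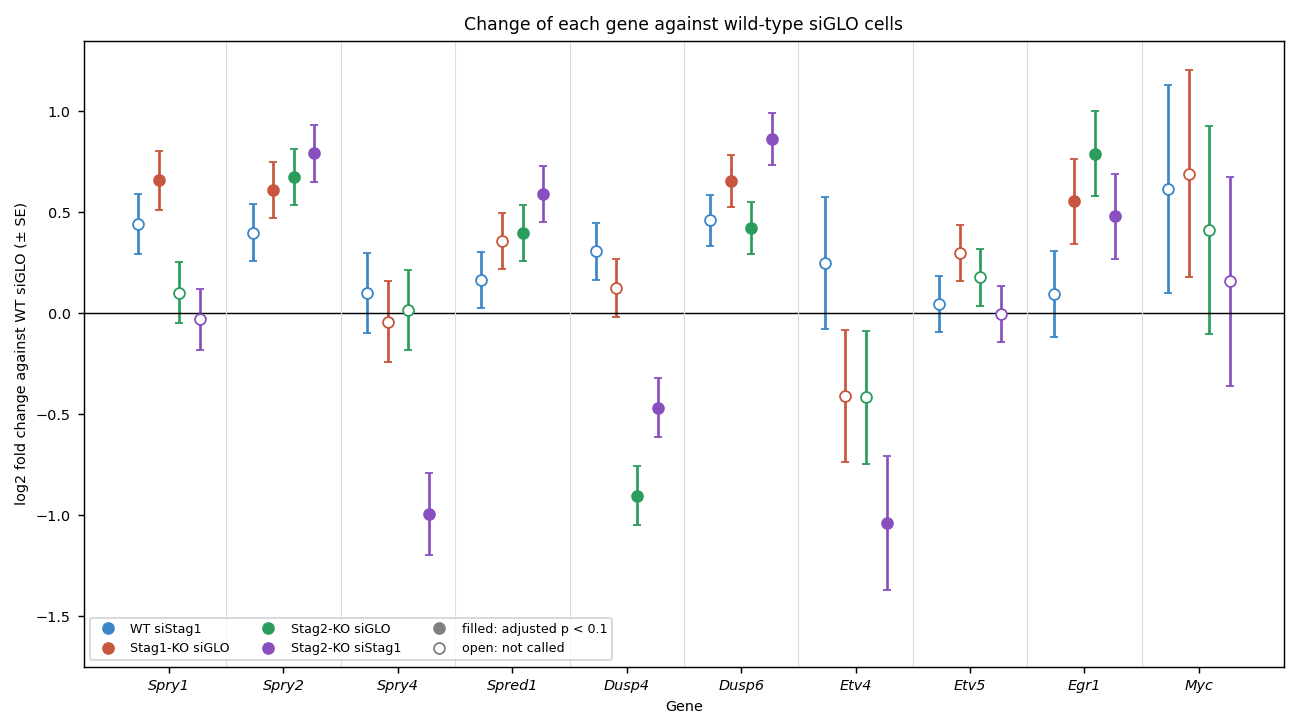
Log2 fold change against wild-type siGLO (y axis) of each of the 10 genes (x axis) in the other 4 conditions, by colour, with bars of ± 1 SE from the edgeR fit (n = 3 libraries per condition). Filled points have an adjusted p under 0.1. Spry2 and Dusp6 are above 0 in all 4 comparisons, and called in 3, while Dusp4, Spry4 and Etv4 have filled points below 0.

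Among the cytoplasmic inhibitors, Spry2 rose in both knockouts and in the doubly depleted cells. Sprouty-2 is a membrane-associated adaptor that is induced by receptor tyrosine kinase signals and dampens them. Normalized Spry2 counts were 1344, 1376 and 1075 in replicates 1, 2 and 3 of wild-type siGLO. In Stag1-/- siGLO they were 1866, 2184 and 1752 and in Stag2-/- siGLO 1827, 2446 and 1783, so that all 6 knockout libraries lay above all 3 controls. They were 2385, 2143 and 2040 in Stag2-/- siStag1 and 1609, 1931 and 1465 in wild-type siStag1 cells, again all above the controls. The log2 fold change was 0.61 ± 0.14 (SE, adjusted p = 0.0073) in Stag1-/-, 0.67 ± 0.14 (adjusted p = 0.0031) in Stag2-/- and 0.79 ± 0.14 (adjusted p = 0.000368) in Stag2-/- siStag1. In wild-type siStag1 cells it was 0.40 ± 0.14 with an adjusted p of 0.510, or 0.0477 with the replicate number as a block. Spry2 lies at chr14:105891947-105896819 on the minus strand (mm10).

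Spry1, another Sprouty adaptor, differed between the knockout clones. Its normalized counts were 250, 304 and 332 in wild-type siGLO and 455, 428 and 513 in Stag1-/- siGLO, without overlap. In Stag2-/- siGLO they were 270, 288 and 393 and in Stag2-/- siStag1 259, 319 and 289, both overlapping the controls. With siStag1 in wild-type cells they were 381, 418 and 403, above all controls. Spry1 rose by a log2 fold change of 0.66 ± 0.15 in Stag1-/- (adjusted p = 0.0071). The values were 0.10 ± 0.15 in Stag2-/- (adjusted p = 0.668) and -0.03 ± 0.15 in Stag2-/- siStag1 (adjusted p = 0.898). Wild-type siStag1 cells gave 0.44 ± 0.15 with an adjusted p of 0.487, or 0.0990 with the replicate block. The direct comparison called Spry1 higher in Stag1-/- than in Stag2-/- siGLO cells, by 0.56 ± 0.15 (adjusted p = 0.0165). Spry1 (chr3:37639947-37644598, plus strand) shares 710 exonic bases with Gm42922 on the opposite strand, which has no row in the counts, and since the strand setting of the counting is not stated its reads may include some from there.

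Of the 4 comparisons with wild-type siGLO, Spry4 was called in that of the doubly depleted cells and in none of the other 3. Sprouty-4 is a further inhibitor of RAS and RAF activation. The counts were 1636, 2199 and 1612 in wild-type siGLO, 1434, 1718 and 2140 in Stag1-/- siGLO, 2108, 1711 and 1684 in Stag2-/- siGLO and 1424, 2490 and 1919 in wild-type siStag1 cells, which overlap one another throughout. The Stag2-/- siStag1 libraries had 1133, 851 and 750, below each of the other 12 libraries. The log2 fold change of Spry4 there was -0.99 ± 0.20 (adjusted p = 0.0013), a fall to 0.502 of the control. The knockouts alone gave -0.04 (95% interval -0.46 to 0.38) in Stag1-/- and 0.02 (-0.41 to 0.44) in Stag2-/-.

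Spred1, a SPRED protein that recruits the RAS-inactivating neurofibromin to the membrane, was higher in the Stag2-/- conditions. Its counts were 1649, 1538 and 1346 in wild-type siGLO and 1864, 1775 and 1448 in wild-type siStag1 cells, which overlap. They were 1913, 2086 and 1804 in Stag1-/- siGLO, 2264, 2037 and 1669 in Stag2-/- siGLO and 2718, 1892 and 2228 in Stag2-/- siStag1 cells, in each case above all controls. Spred1 rose by 0.40 ± 0.14 in Stag2-/- (adjusted p = 0.0543) and by 0.59 ± 0.14 in Stag2-/- siStag1 (adjusted p = 0.0034). The first of these calls was lost in 4 of 6 fits that left out 1 library, those without replicate 2 (adjusted p = 0.122) or 3 (0.191) of wild-type siGLO and without replicate 1 (0.181) or 2 (0.129) of Stag2-/- siGLO. In Stag1-/- the value was 0.36 ± 0.14 with an adjusted p of 0.102, just outside the threshold, and the replicate block gave 0.0135.

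Dusp6 and Dusp4, which both encode phosphatases of ERK, went in opposite directions in Stag2-/- cells. DUSP6 is the cytoplasmic phosphatase specific for ERK, and its transcript is a common readout of FGF signalling. Dusp6 counts were 1018, 1183 and 845 in wild-type siGLO, 1578, 1558 and 1664 in Stag1-/- siGLO, 1403, 1476 and 1199 in Stag2-/- siGLO and 1821, 1912 and 1806 in Stag2-/- siStag1 cells. With siStag1 in wild-type cells they were 1289, 1678 and 1222. Every library of the other 4 conditions lay above all 3 controls. Dusp6 rose by 0.66 ± 0.13 in Stag1-/- (adjusted p = 0.0025), by 0.42 ± 0.13 in Stag2-/- (adjusted p = 0.0293) and by 0.86 ± 0.13, or 1.82-fold, in Stag2-/- siStag1 (adjusted p = 8.31e-05). Without replicate 3 of wild-type siGLO or replicate 2 of Stag2-/- siGLO, the adjusted p in Stag2-/- was 0.137 and 0.112. Wild-type siStag1 cells gave 0.46 ± 0.13 with an adjusted p of 0.287, which was 0.0348 with the replicate block and 0.0996 by DESeq2. Dusp6 lies at chr10:99263231-99267489 on the plus strand.

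Dusp4 encodes a nuclear phosphatase of ERK and was the 1 gene of the 10 called lower in Stag2-/- siGLO cells by the fit over all 15 libraries without the block. Its counts were 668, 723 and 731 in wild-type siGLO and 421, 356 and 357 in Stag2-/- siGLO cells, far apart. The Stag2-/- siStag1 libraries gave 607, 392 and 534 counts, also below all controls. They were 832, 848 and 635 in Stag1-/- siGLO and 945, 832 and 847 in wild-type siStag1 cells, the latter above all controls. The log2 fold change of Dusp4 was -0.90 ± 0.15 in Stag2-/- (adjusted p = 0.000531), a fall to 0.535 of the control, and -0.47 ± 0.14 in Stag2-/- siStag1 (adjusted p = 0.0188). The latter change was -0.31 (adjusted p = 0.0986) without replicate 2 of Stag2-/- siStag1. In Stag1-/- cells it was 0.13 ± 0.14 (adjusted p = 0.621), and in wild-type siStag1 cells 0.31 ± 0.14 (adjusted p = 0.782).

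Dusp4 lies on chromosome 8 (chr8:34807297-34819894, plus strand), which as a whole was lower in the knockout clones. Of 707 other tested genes on this chromosome, 235 were lower and 40 higher in Stag2-/- siGLO, with a median log2 fold change of -0.20. The median was -0.19 in Stag1-/- and -0.22 in Stag2-/- siStag1 cells, and 0.00034 in wild-type siStag1 cells. The 24 genes within 5 Mb of Dusp4 had a median of -0.07 in Stag2-/- siGLO, -0.20 in Stag1-/- and -0.25 in Stag2-/- siStag1 cells. The value of Dusp4 in Stag2-/- siGLO, -0.90, was larger in size than these medians, and the part of the chromosome in it was not tested. Between the 2 knockouts the chromosome's median difference was 0.02, while Dusp4 was 2.04-fold higher in Stag1-/- than in Stag2-/- siGLO cells (log2 1.03 ± 0.15, adjusted p = 0.0002).

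The ETS factors Etv4 and Etv5 (PEA3 subfamily) are induced by FGF and ERK and were the most abundant of the 10 transcripts per kilobase in wild-type siGLO cells. Normalized Etv4 counts were 3081, 2972 and 2199 in wild-type siGLO and 3333, 3548 and 2922 in wild-type siStag1 cells. They were 2464, 1964 and 1784 in Stag1-/- siGLO, 3149, 1653 and 1378 in Stag2-/- siGLO and 2285, 953 and 778 in Stag2-/- siStag1 cells. In both Stag2-/- conditions replicate 1 stood well above the others, and each of these groups overlapped the controls.

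Etv4 had a log2 fold change of -1.04 ± 0.33 in Stag2-/- siStag1 cells (adjusted p = 0.0226), a fall to 0.487 of the control, and with 1 library left out the value ranged from -1.67 (adjusted p = 0.000185, without replicate 1 of that condition) to -0.76 (adjusted p = 0.0985, without its replicate 3). In Stag2-/- siGLO the value was -0.42 ± 0.33 (adjusted p = 0.396). With 1 library left out it ranged from -0.86 (adjusted p = 0.0646, without replicate 1 of Stag2-/- siGLO) to -0.20 (adjusted p = 0.732, without replicate 3 of Stag2-/- siGLO), and the replicate block gave an adjusted p of 0.0705. In Stag1-/- it was -0.41 ± 0.33 (adjusted p = 0.462). Etv4 lies at chr11:101769742-101785371 on the minus strand.

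Etv5 was steadier. Its counts were 4670, 4326 and 4141 in wild-type siGLO, 4683, 4521 and 4366 in wild-type siStag1, 5996, 4972 and 5182 in Stag1-/- siGLO, 5878, 4609 and 4378 in Stag2-/- siGLO and 5581, 3746 and 3774 in Stag2-/- siStag1 cells. Only the Stag1-/- libraries lay entirely above the controls. The log2 fold change there was 0.30 ± 0.14 with an adjusted p of 0.179, or 0.0201 with the replicate block. It was 0.18 (95% interval -0.12 to 0.48) in Stag2-/- and -0.0039 (-0.30 to 0.29) in Stag2-/- siStag1 cells, so that in the doubly depleted cells a change as large as that of Etv4 lies outside the interval of Etv5. Etv5 (chr16:22381309-22439719, minus strand) shares 461 stretches of 150 bases with Gm4798, which has no row in the counts, so its reads could have been split or dropped as multimapping.

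Egr1, an immediate early zinc finger factor, rose in both knockouts and in Stag2-/- siStag1 cells. The calls of Egr1 in Stag1-/- and Stag2-/- siStag1 cells were less certain than those of Spry2 and Dusp6. Its counts were 293, 279 and 199 in wild-type siGLO and 260, 355 and 206 in wild-type siStag1 cells. They were 339, 384 and 409 in Stag1-/- siGLO, 562, 418 and 354 in Stag2-/- siGLO and 428, 339 and 308 in Stag2-/- siStag1 cells, in each case above all controls. The log2 fold change was 0.79 ± 0.21, or 1.73-fold, in Stag2-/- (adjusted p = 0.0149), and it was called in each of 6 fits with 1 library left out. In Stag1-/- it was 0.55 ± 0.21 (adjusted p = 0.0937), and all 6 fits with 1 library left out missed the threshold, with an adjusted p from 0.101 (without replicate 1 of wild-type siGLO) to 0.288 (without replicate 3 of wild-type siGLO). In Stag2-/- siStag1 it was 0.48 ± 0.21 (adjusted p = 0.0874), and the call was lost without replicate 2 (0.118) or 3 (0.298) of wild-type siGLO and without replicate 1 (0.272) or 2 (0.119) of Stag2-/- siStag1. Egr1 and Spry4 both lie on chromosome 18, where the median log2 fold change of the other tested genes lay between -0.015 and 0.0069 in the 4 comparisons with wild-type siGLO.

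Myc, the growth-promoting transcription factor, varied widely between replicates, and no difference was called over all 15 libraries without the block. Its counts were 554, 419 and 207 in wild-type siGLO, 642, 747 and 420 in wild-type siStag1 and 824, 485 and 598 in Stag1-/- siGLO cells. They were 990, 379 and 202 in Stag2-/- siGLO and 797, 308 and 210 in Stag2-/- siStag1 cells, a spread within 1 condition as wide as the whole range of the gene. The log2 fold change was 0.69 (95% interval -0.40 to 1.78) in Stag1-/-, 0.41 (-0.68 to 1.51) in Stag2-/-, 0.61 (-0.47 to 1.70) in wild-type siStag1 and 0.16 (-0.94 to 1.25) in Stag2-/- siStag1 cells. The replicate block gave 0.80 ± 0.29 with an adjusted p of 0.0561 in Stag1-/-. Myc lies at chr15:61985391-61990374 on the plus strand.

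Several of these genes varied with the replicate number in the same way across conditions. Etv5 was highest in replicate 1 in 5 of 5 conditions, and Etv4, Myc and Spred1 in 4 of 5. Spry2 and Etv4 were lowest in replicate 3 in 5 of 5 conditions, and Spred1, Dusp6, Egr1 and Myc in 4 of 5. Spry1 went the other way, being lowest in replicate 1 in 4 of 5 conditions. In both Stag2-/- conditions Myc and Etv4 deviated most among the 10 genes, replicate 1 of Stag2-/- siGLO standing 1.23 and 0.71 above the condition mean on the log2 scale and replicate 1 of Stag2-/- siStag1 1.10 and 0.94 above it. No source states what libraries of the same number shared.

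**Figure D3:**
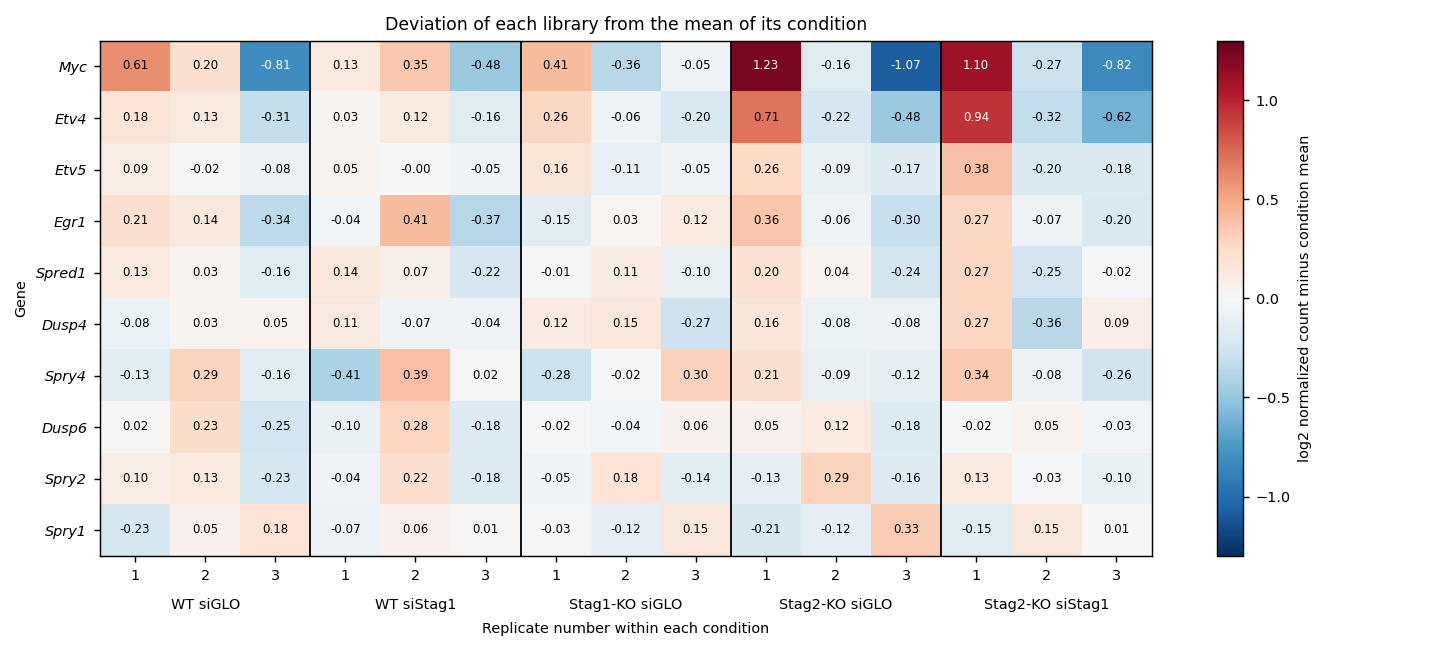
Deviation of each library from the mean of its condition, on the log2 scale of normalized counts, for the 10 genes (rows) and 15 libraries (columns, by condition and replicate number), with red above and blue below the mean and the value printed in each cell. Replicate 1 is red and replicate 3 blue for Etv4 in each of the 5 conditions, and for Myc the deviation runs from 1.23 to -1.07 within Stag2-/- siGLO.

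A fit that took the replicate number as a block called 7 of the 10 genes instead of 4 in Stag1-/- siGLO, with Spred1, Etv5 and Myc added and all 7 higher, while the share of all genes called rose to 30.6%. A fit of only the 6 libraries compared called 8, adding Spred1 (adjusted p = 0.0413), Etv5 (0.0692) and Myc (0.0989) as higher and Etv4 (0.0650) as lower, with 20.5% of all genes called. The block added Etv4 as lower in Stag2-/- siGLO, with 39.4% of all genes called. It called 3 genes, Spry1, Spry2 and Dusp6, all higher, in wild-type siStag1 cells, with 1.63% of all genes called. Without the block, edgeR called 0 of the 10 in wild-type siStag1 cells, where 4 had an unadjusted p under 0.05 (6.36% of all genes did) and DESeq2 called 1 (0.903% of all genes). In those cells Spry1, Spry2, Dusp4 and Dusp6 lay above the controls without overlap, which 15.5% of all genes did in either direction.

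The 2 knockout clones were then compared with each other. Spry1 and Dusp4, described above, were higher in Stag1-/- than in Stag2-/- siGLO cells, and 0 of the 10 were lower, where 25.7% of all genes were called, 12.7% as higher and 12.9% as lower. For Spry2 the difference was -0.06 (95% interval -0.35 to 0.23), for Spred1 -0.04 (-0.33 to 0.25) and for Egr1 -0.24 (-0.68 to 0.20), intervals that leave room for differences of up to 0.68 on the log2 scale. Dusp6 was 0.23 ± 0.13 higher in Stag1-/- (adjusted p = 0.216), and the replicate block gave an adjusted p of 0.0658, with 37.3% of all genes called.

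With Stag1 depleted in Stag2-/- cells, Spry4 was lower and Dusp6 higher. Against Stag2-/- siGLO, Spry4 changed by -1.01 ± 0.20 (adjusted p = 0.0096) and stayed called in each of 6 fits with 1 library left out, and it alone of the 10 was called at an adjusted p under 0.05, as were 3.78% of all genes. Dusp6 rose by 0.44 ± 0.13 (adjusted p = 0.0646). In this comparison 6.37% of all genes were called, 2.98% as higher and 3.39% as lower. The call of Dusp6 was lost when only the 6 libraries compared were fitted (adjusted p = 0.114, with 1.61% of all genes called) and without replicate 1 (0.109) or 3 (0.201) of Stag2-/- siGLO or replicate 2 (0.188) or 3 (0.157) of Stag2-/- siStag1.

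Dusp4, the nuclear phosphatase, was 0.44 ± 0.15 higher in Stag2-/- siStag1 than in Stag2-/- siGLO cells (adjusted p = 0.124), with overlapping libraries. The adjusted p was 0.0509 with the replicate block and 0.0858 by DESeq2. With 1 library left out the log2 fold change ranged from 0.29 (adjusted p = 0.262, without replicate 1 of Stag2-/- siStag1) to 0.59 (adjusted p = 0.0330, without replicate 2 of Stag2-/- siStag1). Etv4 was at -0.62 ± 0.33 (adjusted p = 0.366), and the block gave -0.65 ± 0.20 (adjusted p = 0.0525), so that 4 of the 10 genes were called with it, as were 14.1% of all genes. Without replicate 1 of Stag2-/- siStag1, Etv4 was at -1.25 (adjusted p = 0.0116) and Etv5 at -0.40 (adjusted p = 0.0557), again with 4 of the 10 genes called, while the number of all genes called went from 924 to 1484. Without replicate 1 of Stag2-/- siGLO, at the other end, Etv4 was at -0.18 (adjusted p = 0.870) and Etv5 at -0.042 (adjusted p = 0.940), against -0.18 for Etv5 with all libraries. The ESC markers also fell between these 2 conditions, 5 of 8 being called lower and 0 higher, and their part in the changes of Spry4 and Dusp6 was not tested.

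Whether siStag1 acted differently in Stag2-/- and wild-type cells was tested as the difference of both effects. Stag1 itself had a log2 fold change of -2.28 ± 0.14 with siStag1 in wild-type and -1.53 ± 0.14 in Stag2-/- cells. The difference for Stag1 was 0.75 ± 0.19 (adjusted p = 0.254), and its part in the values below was not tested. None of the 10 genes was called by edgeR without the replicate block, where 0.159% of all genes were, and 2 of the 10 had an unadjusted p under 0.05 (5.80% of all genes did), namely Spry4 and Spry1. For Spry4 the difference was -1.11 ± 0.28 (adjusted p = 0.256), made of 0.10 in wild-type and -1.01 in Stag2-/- cells. DESeq2 called 1 of the 10 genes, Spry4, with an adjusted p of 0.0399, and 0.703% of all genes. For Spry1 the difference was -0.57 ± 0.21 (adjusted p = 0.631), from 0.44 in wild-type and -0.13 in Stag2-/- cells. For Dusp6 the effects were 0.46 and 0.44, with a difference of -0.02 (95% interval -0.40 to 0.36).

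Other genes of the pathway were examined as 3 lists, given by counts and medians. The first held other members of the same families, of which 13 of 17 were tested. Of these, 3 rose and 0 fell in Stag1-/-, 3 rose and 2 fell in Stag2-/-, and 5 rose and 3 fell in Stag2-/- siStag1 cells, while 0 were called by edgeR in wild-type siStag1 cells, with or without the block. Of all genes, 20.0%, 28.3%, 43.9% and 0.248% were called in these comparisons. The replicate block called 6 of the list in Stag1-/-, all higher, and 5 as higher and 3 as lower in Stag2-/- siGLO, where it called 30.6% and 39.4% of all genes. The list's median log2 fold changes without the block were 0.30, 0.24, 0.07 and -0.04 in that order.

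Spred3, a SPRED family member, rose in all 3 conditions with a knockout, by 0.96 ± 0.25, 1.71 ± 0.24 and 2.18 ± 0.24, and its counts of 103, 75.2 and 55.2 in wild-type siGLO compared with 431, 327 and 305 in Stag2-/- siStag1 cells. Etv1, the remaining factor of the PEA3 subfamily, rose by 1.04 ± 0.16 in Stag2-/- and by 1.70 ± 0.16 in Stag2-/- siStag1 cells, with counts of 450, 309 and 266 in wild-type siGLO and 1202, 1032 and 1102 in Stag2-/- siStag1. It also rose between Stag2-/- siGLO and Stag2-/- siStag1 cells, by 0.66 ± 0.15 (adjusted p = 0.0221). Etv1 and Etv4 thus changed in opposite directions in Stag2-/- siStag1 cells.

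Among the other phosphatases, Dusp9, a cytoplasmic ERK phosphatase abundant in mESCs, fell in both Stag2-/- conditions, with log2 fold changes of -0.93 ± 0.19 under siGLO and -1.11 ± 0.19 under siStag1, and with counts of 3582, 3817 and 3224 in wild-type siGLO and 2341, 1906 and 1327 in Stag2-/- siGLO. Dusp5, a nuclear ERK phosphatase, rose by 0.68 ± 0.22 in Stag1-/-, fell by 1.07 (SE 0.23) in Stag2-/- siStag1 cells and was higher in Stag1-/- than in Stag2-/- siGLO cells by 1.14 ± 0.22 (adjusted p = 0.0022). Dusp1 was lower in both Stag2-/- conditions, at -0.88 ± 0.27 in Stag2-/- siGLO, with overlapping libraries, and -1.68 ± 0.28 in Stag2-/- siStag1 cells. In those cells Dusp10, a phosphatase of stress-activated kinases, rose by 1.32 ± 0.29 from a low level, Spred2 by 0.46 ± 0.14 and Dusp7, a cytoplasmic ERK phosphatase, by 0.31 ± 0.12. Mycn, the MYC paralog prominent in mESCs, rose by 0.53 ± 0.14 in Stag1-/-, with overlapping libraries, and by 0.57 ± 0.14 in Stag2-/- siGLO, and it fell by 0.49 (SE 0.14) from there to Stag2-/- siStag1 cells (adjusted p = 0.0542).

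**Figure D4:**
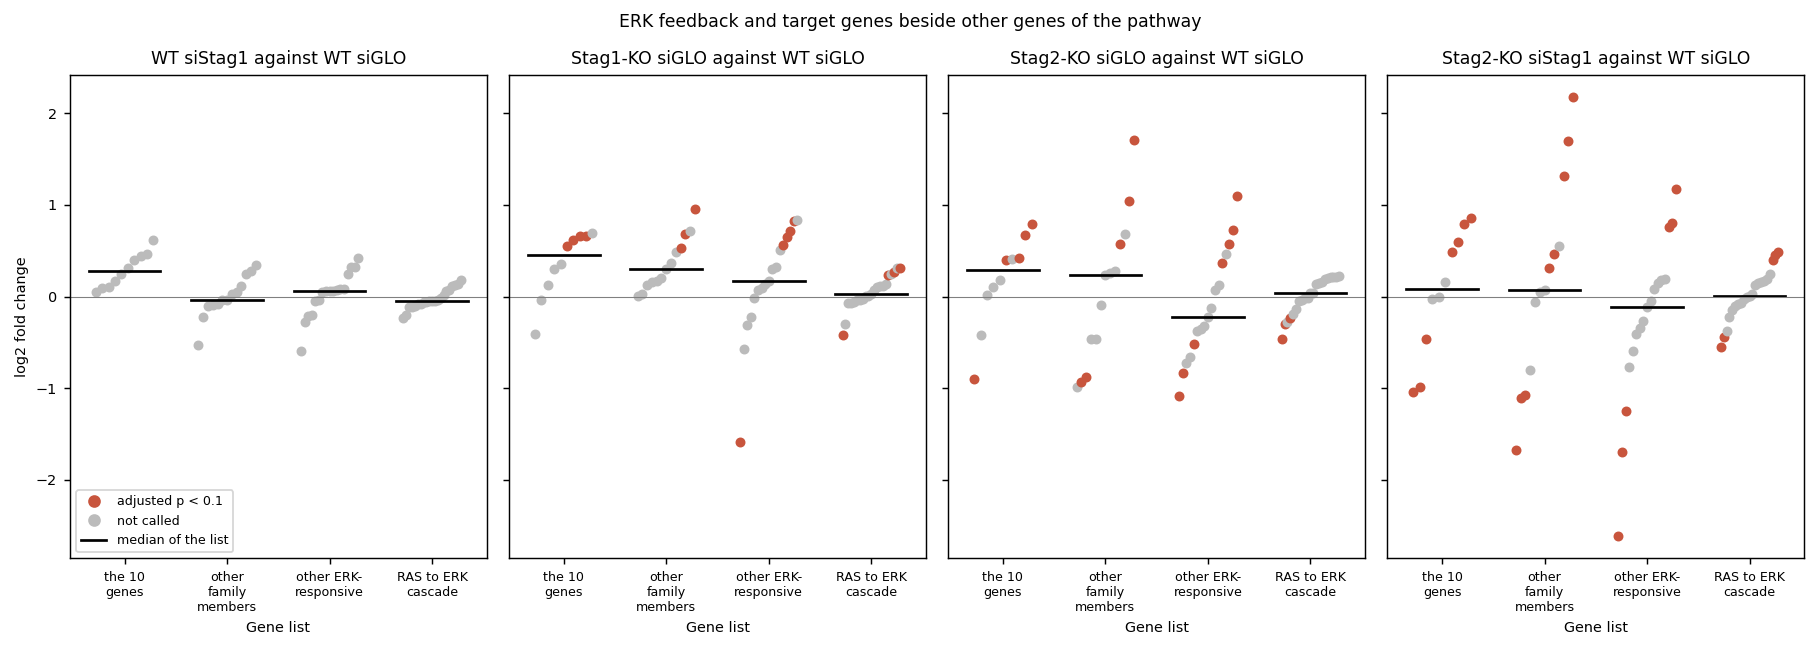
Log2 fold change (y axis) of each tested gene in 4 lists (x axis), in the 4 comparisons with wild-type siGLO (panels). Red points have an adjusted p under 0.1, grey points do not, and black bars are list medians. Called genes of the 10 lie on both sides of 0 in Stag2-/- siStag1 cells, as do those of the other family members, from -1.68 to 2.18.

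The second list held other ERK-responsive genes, of which 17 of 19 were tested. In Stag1-/- 4 rose and 1 fell, in Stag2-/- 4 rose and 3 fell, and in Stag2-/- siStag1 3 rose and 3 fell, with list medians of 0.16, -0.22 and -0.12, where 20.0%, 28.3% and 43.9% of all genes were called. The block called 8 as higher and 1 as lower in Stag1-/-, where it called 30.6% of all genes. Il17rd, encoding the FGF receptor inhibitor SEF, rose by 0.56 ± 0.18 in Stag1-/- (adjusted p = 0.0503), by 1.10 ± 0.18 in Stag2-/- and by 1.17 ± 0.18 in Stag2-/- siStag1 cells, where its counts went from 1265, 1355 and 1309 in wild-type siGLO to 2442, 3314 and 3098. Emp1 (-1.08 ± 0.24 and -2.62 ± 0.26) and Phlda1 (-0.83 ± 0.24 and -1.69 ± 0.25) fell in both Stag2-/- conditions, siGLO and siStag1 in that order. Nr4a1, an immediate early nuclear receptor gene, was lower in both, at -0.51 ± 0.13 in Stag2-/- siGLO and -1.25 ± 0.13 in Stag2-/- siStag1 cells. Ccnd1, encoding cyclin D1, rose by 0.72 ± 0.15 in Stag2-/- siGLO and by 0.76 ± 0.15 in Stag2-/- siStag1 cells. In Stag1-/- cells Jun (0.83 ± 0.21), Errfi1 (0.71 ± 0.13), an EGFR inhibitor, and Srf (0.64 ± 0.12) rose, while the ephrin receptor gene Epha4 fell by 1.58 (SE 0.34). Jun also rose in Stag2-/- siGLO (0.57 ± 0.21, with overlapping libraries) and Stag2-/- siStag1 (0.81 ± 0.21), and Srf in Stag2-/- siGLO cells (0.37 ± 0.12). The wild-type siStag1 comparison called 0 of this list in edgeR, with or without the block.

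The third list held genes of the cascade from RAS to ERK, with adaptors, RAS inactivators and kinases activated by ERK among them, of which 21 of 22 were tested. Of these, 3 genes rose and 1 fell in Stag1-/-, 0 rose and 3 fell in Stag2-/-, and 3 rose and 2 fell in Stag2-/- siStag1 cells, with list medians of 0.03, 0.04 and 0.0035, and 0 were called by edgeR in wild-type siStag1 cells, with or without the block, beside 20.0%, 28.3%, 43.9% and 0.248% of all genes. In Stag2-/- siGLO the count depended on the replicate block, which called 5 as higher and 4 as lower and 39.4% of all genes. In Stag1-/- cells the RAS inactivator Nf1 fell by 0.42 (SE 0.12) and the adaptor Shc1 rose by 0.31 ± 0.09, as it did in Stag2-/- siStag1 cells by 0.39 ± 0.09. Map2k2, encoding MEK2, rose by 0.27 ± 0.10 and the RAS exchange factor gene Sos1 by 0.23 ± 0.09 in Stag1-/- cells. In Stag2-/- cells the ERK-activated kinase Rps6ka1 (-0.46 ± 0.10), the RAF kinase gene Araf (-0.30 ± 0.12) and Map2k1 (-0.23 ± 0.09), encoding MEK1, fell. In Stag2-/- siStag1 cells Rasa1, a RAS GTPase-activating protein, rose by 0.48 ± 0.10 and Rps6ka3, another ERK-activated kinase, by 0.45 ± 0.09, while Map2k1 (-0.44 ± 0.09) and Rps6ka1 (-0.55 ± 0.10) fell.

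The lists were also compared between the knockout clones, where 25.7% of all genes were called, 12.7% as higher and 12.9% as lower. Higher in Stag1-/- than in Stag2-/- siGLO cells were 5 of 13 tested family members, 7 of 17 ERK-responsive genes and 2 of 21 cascade genes. Lower were 2, 4 and 1 of them. Beside Dusp5, the family members Dusp9 (1.23 ± 0.19) and Dusp1 (0.90 ± 0.27) were higher and Etv1 (-0.87 ± 0.16) was lower in Stag1-/-. Phlda1 (1.00 ± 0.24), Errfi1 (0.83 ± 0.13) and Emp1 (0.77 ± 0.24) were higher and Epha4 (-1.23 ± 0.34) was lower, and among the cascade genes Rps6ka1 (0.49 ± 0.10) and the scaffold gene Ksr1 (0.44 ± 0.15) were higher and Nf1 (-0.38 ± 0.12) was lower. The block called 5 cascade genes as higher and 3 as lower, with 37.3% of all genes called.

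With siStag1 in Stag2-/- cells, where 6.37% of all genes were called, 1 of the other family members rose (Etv1) and 1 fell (Mycn), 3 ERK-responsive genes fell, Emp1 (-1.54 ± 0.26) and Nr4a1 (-0.73 ± 0.13) among them, and 0 cascade genes were called by edgeR without the block. The block called 2 family members as higher and 3 as lower, and 3 cascade genes as higher and 1 as lower, with 14.1% of all genes called. ERK activity itself, the phosphorylated protein, was not measured in these libraries.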

How the data were processed

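Polyadenylated RNA of 15 mESC libraries was sequenced as paired-end reads and aligned to mm10 with STAR by the authors, who deposited raw counts of reads per gene, without normalization. The counting tool, annotation and strand setting are not given in the sources used here. The 4 summary lines of each library, which held 19.8% to 23.4% of its counts, were left out. Depth was 14982560 to 19070126 counts on genes (median 17700059), and 3 counts correspond to 0.156 to 0.201 CPM, which covers counting error only.

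Counts were tested with edgeR 4.0.16 in R 4.3.3 (filterByExpr by condition with a minimum count of 10 and a minimum total of 15, TMM, glmQLFit with 1 coefficient per condition over 15 libraries, two-sided glmQLFTest contrasts). The Benjamini-Hochberg adjustment ran over 14508 genes, at a threshold of 0.1. The SE is the size of a log2 fold change divided by the square root of its F statistic. To give normalized counts, each library was rescaled from its effective (TMM) size to 1 depth shared by all. Alternatives were DESeq2 1.42.0, its size factors in edgeR, no filter, a block on the replicate number, a fit of only the libraries compared, each library left out, and an adjusted p under 0.05. Tested on simulated counts for Stag1-/- against wild-type siGLO, the fit found 141 of 200 genes set to change 2-fold, and 14 false calls among 14317 genes. The same test of the difference of siStag1 effects found 110 of 200, with 11 false calls among 14320 genes.

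Libraries with the same replicate number in the labels deviated from their condition means together (mean r 0.281, taken across 12439 genes, in 30 pairs, and -0.137 in 60 pairs with different numbers). The deviations within a condition cancel in each gene, so the value for different numbers follows largely from the first and is no separate evidence. Genes are not independent replicates. Every same-numbered pair was over 0.1 in 5 of the 6 comparisons of conditions. In Stag2-/- siStag1 against wild-type siGLO 1 pair was at 0.0345, so block values for this comparison and for the difference of siStag1 effects are not given beside the results. Replicates were checked for duplicates by the chi-square of their counts divided by its degrees of freedom, which was 4.70 to 26.8 in the 15 pairs, so none was a copy.

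The 10 genes, the 3 pathway lists and the marker lists were chosen with earlier results of these data known. A list gene was named where it was called, its replicates did not overlap and its mean normalized count reached 50, up to 4 genes per list and comparison. Other called values, of these genes in further comparisons and of Dusp7, Dusp10 and Spred2, were added after their values were seen. Positions on mm10 come from GENCODE M21, which held all 10 symbols. Per-kilobase values use the union of exons in it. Plots used matplotlib 3.10.9 and Python 3.11.15.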

Additional observations from a re-analysis of the deposited data

How the results depend on the processing

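Of the 10 genes, the number called in Stag1-/- against wild-type siGLO was 4 and became 8 with only the libraries compared (7 higher, with Etv4 added as lower) and 7 with the replicate block. In wild-type siStag1 cells it was 0 and became 1 with DESeq2 and 3 with the block. Between Stag2-/- siStag1 and Stag2-/- siGLO it was 2 and became 1 at an adjusted p under 0.05, 1 with only the libraries compared and 4 with the block. For the difference of siStag1 effects it was 0 and became 1 with DESeq2 and 1 with the block, which is Spry4 in both (adjusted p = 0.0399 and 0.0858). The block called 138 genes in all there, and same-numbered libraries do not all pair in that test. In the other comparisons the block added Etv4 in Stag2-/- and Dusp6 between the knockouts, and it ended no call of the 10 genes. The causes of these shifts were not tested.

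With 1 library left out, the number called was 3 in each of 6 fits in Stag1-/- siGLO, against 4 with all libraries. It ranged from 3 to 5 in Stag2-/- siGLO (3 without replicate 3 of wild-type siGLO or replicate 2 of Stag2-/- siGLO). In Stag2-/- siStag1 cells against wild-type siGLO it ranged from 6 to 7, and between Stag2-/- siStag1 and Stag2-/- siGLO from 1 to 4. For the difference of siStag1 effects it ranged from 0 to 2. There Spry4 (adjusted p = 0.0697) and Etv4 (0.0978) were called without replicate 1 of Stag2-/- siStag1. The share of all genes called was not set beside these counts, so they describe the 10 genes alone. Where leaving 1 library out turned the sign of a log2 fold change, the gene was not called. These ranges were, in Stag1-/-, -0.20 to 0.12 for Spry4. In Stag2-/- they were -0.082 to 0.20 for Spry1, -0.10 to 0.18 for Spry4 and -0.44 to 0.80 for Myc. With siStag1 in wild-type cells they were -0.12 to 0.28 for Spry4 and -0.14 to 0.27 for Egr1. In Stag2-/- siStag1 cells against wild-type siGLO they were -0.14 to 0.062 for Spry1, -0.22 to 0.095 for Etv5 and -0.60 to 0.49 for Myc. Between the knockouts they were -0.16 to 0.10 for Spry2, -0.22 to 0.074 for Spry4, -0.15 to 0.063 for Spred1, -0.21 to 0.45 for Etv4 and -0.11 to 1.13 for Myc. Between Stag2-/- siStag1 and Stag2-/- siGLO they were -0.24 to 0.052 for Spry1 and -1.02 to 0.60 for Myc. For the difference of siStag1 effects they were -0.12 to 0.15 for Spred1, -0.014 to 0.29 for Dusp4 and -0.14 to 0.13 for Dusp6. No other alternative turned a sign. With 3 libraries per condition, the 95% interval in Stag1-/- ran from -0.40 to 1.78 for Myc and from -1.10 to 0.28 for Etv4. The lowest raw count of the 10 genes was 191, and the part of depth in these intervals was not tested.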
